A study of Mus musculus with 8 samples.

Results

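Ly6C-high monocytes of Bcl6 cKO mice were compared with those of wild type mice. The comparison rests on the 4 libraries that the labels give to these genotypes, 2 each, of 8 libraries in the series. Values were compared for 12752 genes whose mean over all 8 libraries was at least 1 CPM (counts per 1000000 reads assigned to genes, the normalised read count), of 13744 genes in the deposited table. The other libraries, 2 of Irf2 KO and 2 of Nr4a1 KO monocytes, helped to estimate the spread and served as 2 further reference groups. All were Ly6C+ classical monocytes of mouse bone marrow, and the title of the series asks how Bcl6, Irf2 and Notch2 act in the development of nonclassical monocytes. Bcl6 cKO stands for a conditional knockout of Bcl6. The Cre line that deletes the gene, the exons deleted, any allele shared with the wild type mice, their age and sex, and batches are not stated in the sources used here. Nor do these say if the 2 libraries of a genotype are from different animals, so the p-values reflect only how far these samples vary, and that variation may be technical.

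BCL6 is a transcriptional repressor with zinc fingers that bind DNA and a BTB domain that recruits the corepressors NCOR, SMRT and BCOR. It is best known as the master regulator of germinal centre B cells and follicular helper T cells, and it also restrains inflammatory genes in macrophages. BCL6 binds and represses its own gene. Ly6C-high monocytes leave the bone marrow through the chemokine receptor CCR2, and a share of them turn into Ly6C-low nonclassical monocytes, a step that needs the nuclear receptor NR4A1.

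Libraries held 46617756 to 62633123 reads assigned to genes, so that 1 CPM stood for 47.9 to 61.8 reads. The classical monocyte label was checked against its markers: 3747 and 4756 CPM of Ly6c2 and 1296 and 1078 CPM of the chemokine receptor gene Ccr2 were read in wild type, against 4221 and 5006 and 1084 and 973 CPM in Bcl6 cKO. Mitochondrial transcripts made up 0.569% and 0.576% of reads in wild type and 0.639% and 0.662% in Bcl6 cKO. Each change is a log2 fold change ± SE, Bcl6 cKO minus wild type, from limma with n = 2 libraries per genotype, and a gene is called when its Benjamini-Hochberg adjusted p is under 0.05.

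In the libraries labelled Bcl6 cKO, transcripts of Bcl6 itself were more abundant than in wild type. The gene (ENSMUSG00000022508; minus strand of chromosome 16, chr16:23965052-23988852, GRCm38) stood at 25.3 and 24.9 CPM in wild type and 92.4 and 84.4 CPM in Bcl6 cKO. The groups did not overlap, the change was 1.81 ± 0.16 (adjusted p 0.00233), and the call held with each of the 8 libraries left out in turn (adjusted p at most 0.037). Levels in the other knockouts were 10.3 and 13.9 CPM in Irf2 KO and 25.2 and 26.8 CPM in Nr4a1 KO, so both Bcl6 cKO libraries lay above every other library. The table counts reads over the whole gene, so reads outside a deleted part are included, and this gene level does not check the label. Directions below therefore refer to the libraries labelled Bcl6 cKO. The other targeted genes did not pass the test: Nr4a1 read 24.9 and 39.1 CPM in wild type and 22.5 and 23.6 CPM in Bcl6 cKO (adjusted p 0.393), and Irf2 145 and 141 against 137 and 157 CPM (adjusted p 0.907). Notch2, the receptor in the series title, read 629.9 and 523 CPM in wild type and 731 and 700.0 CPM in Bcl6 cKO, a difference of 0.32 ± 0.15 (adjusted p 0.265).

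Genes near Bcl6 were examined because a targeted allele can carry or disturb its neighbours. Of 50 tested genes within 5 Mb of Bcl6, that gene included, 2 were called higher and 2 lower, which is 8.0% against 5.01% of all genes tested. Bcl6 was itself 1 of the 2 called higher, so the only calls among its 49 neighbours were those of Lpp, Dnajb11 and Parl. Lpp, a focal adhesion protein gene that lies 0.405 Mb from Bcl6 (chr16:24393507-24992578, plus strand), rose from 14.9 and 14.1 to 49.8 and 46.5 CPM, by 1.73 ± 0.32 (adjusted p 0.0196). Dnajb11, which encodes a chaperone of the endoplasmic reticulum, read 111 and 86.5 CPM in wild type and 38.6 and 50.8 CPM in Bcl6 cKO and fell by 1.14 ± 0.18 (adjusted p 0.0109). Parl, a rhomboid protease of mitochondria, fell from 149 and 139 to 58.7 and 76.5 CPM, by 1.10 ± 0.15 (adjusted p 0.00671). Within 10 Mb, 3 of 146 genes were called higher and 4 lower (4.79%), and within 20 Mb 4 of 247 higher and 6 lower (4.05%), so these shares lay below that of all genes. Of the 4 calls, that of Bcl6 held throughout, while 3 ended without Bcl6 cKO replicate 1 (adjusted p 0.0724 to 0.159), 1 without Bcl6 cKO replicate 2 (0.113), 2 without wild type replicate 1 (0.0668 to 0.0795) and 1 without wild type replicate 2 (0.0908).

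The promoters of the called genes were searched for the BCL6 binding motif, and those that hold it among the risen genes are shown here with that of Bcl6. Sequences are from RefSeq on GRCm38.p6, 250 bases directly before the annotated start, 5′ to 3′ on the gene's strand, with the match in capitals. The motif TTCCTNGAA was searched on both strands, with N for any base. The promoter of Ahctf1 is chr1:179804016-179804265 (minus strand), that of Nkg7 chr7:43436888-43437137 (plus), that of Arid5b chr10:68278727-68278976 (minus), that of Rnf144b chr13:47122470-47122719 (plus) and that of Bcl6 chr16:23988853-23989102 (minus).
Ahctf1: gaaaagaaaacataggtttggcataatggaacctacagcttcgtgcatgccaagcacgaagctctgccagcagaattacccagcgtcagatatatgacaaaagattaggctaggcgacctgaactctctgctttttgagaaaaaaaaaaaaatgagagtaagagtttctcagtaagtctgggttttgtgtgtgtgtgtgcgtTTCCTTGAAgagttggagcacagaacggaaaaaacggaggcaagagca
Nkg7: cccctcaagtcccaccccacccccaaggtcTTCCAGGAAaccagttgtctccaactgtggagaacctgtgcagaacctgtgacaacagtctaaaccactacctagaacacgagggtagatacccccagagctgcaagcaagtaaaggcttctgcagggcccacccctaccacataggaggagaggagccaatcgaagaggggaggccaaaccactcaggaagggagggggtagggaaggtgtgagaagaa
Arid5b: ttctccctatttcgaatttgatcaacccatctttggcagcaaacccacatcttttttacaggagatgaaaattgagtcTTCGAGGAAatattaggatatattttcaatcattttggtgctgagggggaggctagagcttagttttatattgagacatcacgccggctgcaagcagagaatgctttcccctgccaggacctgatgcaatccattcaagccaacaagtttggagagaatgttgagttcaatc
Rnf144b: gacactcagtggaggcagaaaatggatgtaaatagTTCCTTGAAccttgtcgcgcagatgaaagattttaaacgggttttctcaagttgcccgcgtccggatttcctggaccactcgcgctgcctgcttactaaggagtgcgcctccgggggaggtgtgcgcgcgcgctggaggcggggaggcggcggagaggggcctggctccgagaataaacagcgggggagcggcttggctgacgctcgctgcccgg
Bcl6: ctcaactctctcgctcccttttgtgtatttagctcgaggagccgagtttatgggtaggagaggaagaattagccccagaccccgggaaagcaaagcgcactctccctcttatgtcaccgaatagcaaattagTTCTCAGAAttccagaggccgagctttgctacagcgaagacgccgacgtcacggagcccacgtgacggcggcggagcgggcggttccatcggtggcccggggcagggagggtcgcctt
In the Bcl6 promoter the capitals mark a match to the looser motif TTCNNNGAA, which contains every match to the first, and no TTCCTNGAA was found in that window.

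Promoter sequences were matched by symbol for 8677 of the 12752 genes tested. TTCCTNGAA occurred in 4 of 109 promoters of genes called higher (3.67%), 1 of 361 of genes called lower (0.277%) and 91 of all 8677 (1.05%). The looser TTCNNNGAA occurred in 8.26%, 6.09% and 6.13% of the same promoters. These are counts of letters in a short window, not binding sites. Ahctf1, whose product ELYS is a nuclear pore protein, rose from 24.3 and 16.9 to 55.7 and 46.5 CPM, by 1.33 ± 0.20 (adjusted p 0.00935). Nkg7, a granule protein gene of cytotoxic lymphocytes, rose from 7.36 and 10.0 to 20.8 and 17.0 CPM, by 1.13 ± 0.21 (adjusted p 0.0231). The chromatin regulator gene Arid5b rose by 0.84 ± 0.18 (adjusted p 0.0352) and the ubiquitin ligase gene Rnf144b by 0.81 ± 0.18 (adjusted p 0.0416). In all 4 genes both libraries labelled Bcl6 cKO lay above both wild type libraries, as in 26.8% of all genes tested. None of the 4 calls held in every fit that left out 1 library. Of them, 4 ended without Bcl6 cKO replicate 1 (adjusted p 0.114 to 0.185), 3 without Bcl6 cKO replicate 2 (0.0776 to 0.243), 3 without wild type replicate 1 (0.104 to 0.171), 2 without wild type replicate 2 (0.0845 to 0.114), 1 without Irf2 KO replicate 1 (0.0530) and 1 without Irf2 KO replicate 2 (0.0524). A correction for GC content and length ended the call of Arid5b (adjusted p 0.0657).

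Across all genes, 639 were called between Bcl6 cKO and wild type (5.01%), of which 173 were higher (1.36%) and 466 lower (3.65%) in Bcl6 cKO. More than 2-fold changes were found in 78 of the risen and 232 of the fallen genes, and more than 4-fold changes in 20 and 42. The median change was 0.90 among genes called higher and -1.0 among those called lower, while the median over all genes tested was -0.01. The authors' deposited table called 893 genes at the same threshold, 248 higher and 645 lower, and 633 of the 639 were among them. Groups that do not overlap were common: both Bcl6 cKO libraries lay above both wild type libraries in 26.8% of genes and below in 28.4%, which is 55.2% in either direction.

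The count depended on single libraries. Without Bcl6 cKO replicate 1, 33 genes were called (8 higher), and without Bcl6 cKO replicate 2, 184 (22 higher). Without wild type replicate 1, 194 genes were called, and without wild type replicate 2, 329. Only 32 genes (0.251%) were called in the full fit and with each of the 8 libraries left out, 7 higher and 25 lower. Higher genes made up 27.1% of calls as deposited, 40.7% once the median of every library was set to the same value (256 higher, 373 lower) and 39.3% after quantile normalization. Centring moved the median of all genes by 0.07.

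**Figure D1:**
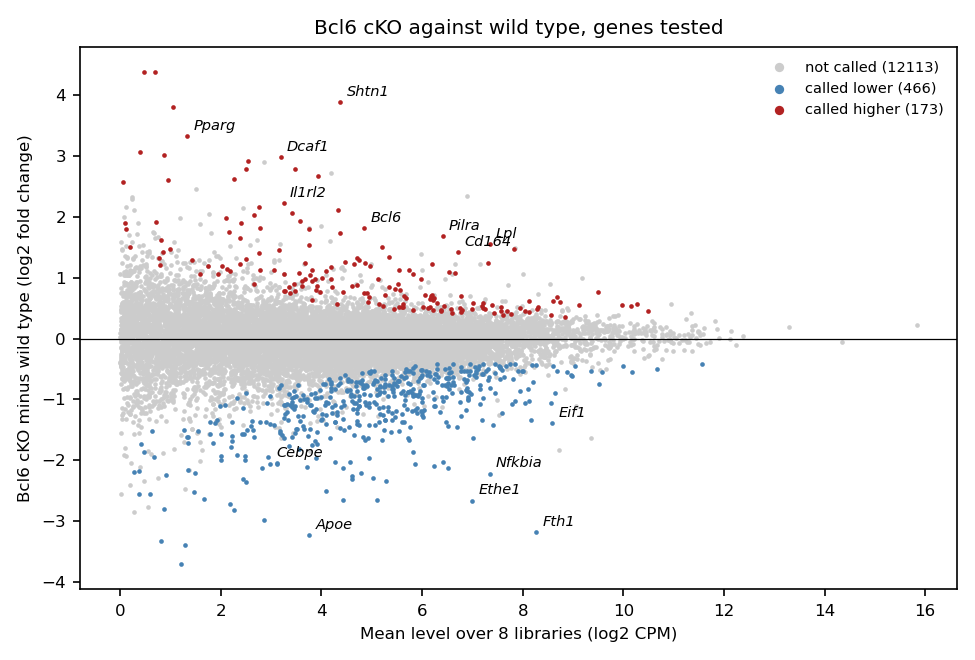
Change in Bcl6 cKO against wild type (vertical axis, log2 fold change) by mean level over the 8 libraries (horizontal axis, log2 CPM), with 1 point per gene tested. Red points are the 173 genes called higher and blue points the 466 called lower, and most calls below the zero line lie at levels above 2 log2 CPM.

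The largest rises among protein-coding genes (mean level 4 CPM or more) included surface receptors, a cytokine and genes with no common role. Shtn1, whose product shootin-1 links actin to adhesion molecules, rose from 4.67 and 2.52 CPM in wild type to 48.2 and 53.4 CPM in the libraries labelled Bcl6 cKO. Its change was 3.89 ± 0.37 (adjusted p 0.00238), and Irf2 KO libraries were at 43.7 and 58.1 CPM and Nr4a1 KO libraries at 30.3 and 14.6 CPM. The gene was thus also above both wild type libraries in each other knockout. Dcaf1, the substrate receptor of a cullin 4 ubiquitin ligase, read 4.92 and 5.13 CPM in wild type and 42.1 and 37.4 CPM in Bcl6 cKO (2.98 ± 0.24, adjusted p 0.00233). The other 6 libraries lay between 4.28 and 9.22 CPM, so that only the Bcl6 cKO libraries stood high.

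Receptors for soluble ligands were among these rises. Il1rl2, the receptor subunit for interleukin 36, rose from 5.98 and 6.81 to 27.4 and 32.7 CPM, by 2.23 ± 0.24 (adjusted p 0.00331). P2ry13, a receptor for ADP, rose from 3.63 and 2.64 to 18.1 and 20.2 CPM, by 2.63 ± 0.30 (adjusted p 0.00401). Ednrb, the endothelin receptor type B, rose from 3.60 and 2.99 to 18.4 and 11.8 CPM, by 2.16 ± 0.36 (adjusted p 0.0141). The cytokine gene Osm, which encodes oncostatin M of the interleukin 6 family, read 15.1 and 13.3 CPM in wild type and 50.6 and 74.5 CPM in Bcl6 cKO (2.12 ± 0.35, adjusted p 0.0131). That the groups do not overlap in these 4 genes was a condition for choosing all 15 leading rises.

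The remaining leading rises ranged from 1.91 to 2.91. Tmem273 and Smim40 encode small membrane proteins, Adam19 a membrane metalloprotease, Mgat4a an enzyme that branches N-glycans and Chn2 a GTPase-activating protein for Rac. Adam19 read 4.75 and 6.28 CPM in wild type, 34.6 and 35.3 CPM in Bcl6 cKO and 48.2 and 40.0 CPM in Nr4a1 KO, so it stood high in both of these knockouts. Chn2 rose from 7.22 and 6.65 to 26.5 and 31.8 CPM, by 2.07 ± 0.23 (adjusted p 0.00397). Tmcc3, which encodes a membrane protein of the endoplasmic reticulum, rose from 4.16 and 4.43 to 32.5 and 26.9 CPM, by 2.78 ± 0.48 (adjusted p 0.0152). Tsc22d1, a leucine zipper gene, rose by 1.94 ± 0.37 (adjusted p 0.0236). Trim30c and Rnase2a rose by 2.79 ± 0.40 and 1.91 ± 0.42, but both belong to families of near-identical copies, and how reads were shared among the copies is uncertain. Among these 15 calls, those of Shtn1, Dcaf1 and Il1rl2 held with every library left out, whereas 12 ended without Bcl6 cKO replicate 1 (adjusted p 0.0525 to 0.201), 7 without Bcl6 cKO replicate 2 (0.0649 to 0.203), 8 without wild type replicate 1 (0.0539 to 0.144) and 6 without wild type replicate 2 (0.0554 to 0.116). A correction for GC content and length ended the call of Rnase2a (adjusted p 0.0920). Voom and the authors' deposited table did not call Rnase2a either (adjusted p 0.0621 and 0.0543).

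**Figure D2:**
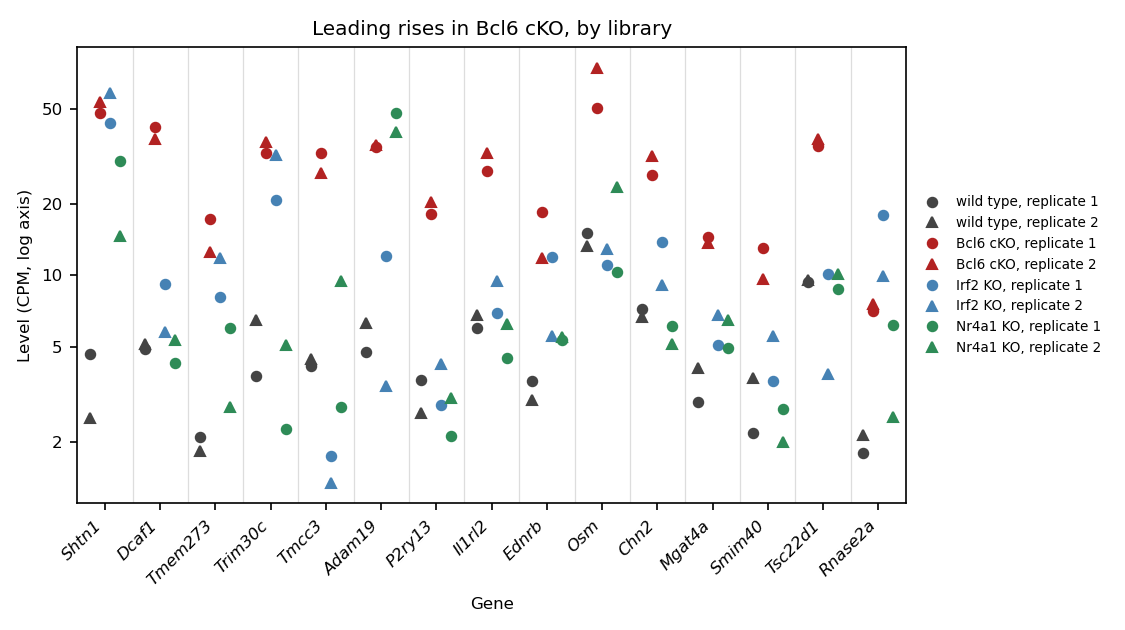
Level of the 15 leading rises in each of the 8 libraries (vertical axis, CPM on a log scale), with colours for genotype and shapes for replicate number. The genes were chosen so that the red points of Bcl6 cKO lie above the dark points of wild type. Shtn1, Trim30c, Adam19 and Rnase2a also have high points in another knockout.

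Further single rises are given here without a list behind them. The genes were chosen after their values were seen, except Pilra and Cd164, which are among the 7 rises called with every library left out. Pilra, an inhibitory receptor for sialylated glycoproteins, rose from 72.8 and 60.0 to 209.7 and 215 CPM, by 1.68 ± 0.13 (adjusted p 0.00233). Its activating partner genes stood at 28.9 and 33.4 CPM in wild type and 87.6 and 88.6 CPM in Bcl6 cKO for Pilrb1, and at 28.2 and 27.8 and 64.5 and 63.4 CPM for Pilrb2. These 3 genes share sequence, so the part of the reads that belongs to each is uncertain. Clec4n, which encodes dectin-2, a C-type lectin receptor for fungi, rose from 1.94 and 1.16 to 16.7 and 26.5 CPM, by 3.81 ± 0.49 (adjusted p 0.00589), with at most 2.33 CPM in the other knockouts. The sialomucin gene Cd164 rose from 104 and 98.5 to 288 and 256 CPM, by 1.43 ± 0.13 (adjusted p 0.00233), and lay at 31.5 and 39.8 CPM in Nr4a1 KO. Both Bcl6 cKO libraries were above all 6 other libraries in Cd164 and in Clec4n. Anxa3, a phospholipid-binding annexin, rose from 176 and 181 to 513 and 474 CPM, by 1.47 ± 0.22 (adjusted p 0.00911). Of the 6 calls, 4 ended without Bcl6 cKO replicate 1 (adjusted p 0.0697 to 0.110), 3 without Bcl6 cKO replicate 2 (0.0548 to 0.0565) and 1 without wild type replicate 1 (0.0550).

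The remaining genes called higher with every library left out were Klhl9 and, as above, Bcl6, Shtn1, Dcaf1 and Il1rl2. Klhl9, an adaptor of a cullin 3 ubiquitin ligase, rose from 121 and 103 to 266 and 262 CPM, by 1.24 ± 0.10 (adjusted p 0.00233). Tfec, a factor of the MITF family that is found in myeloid cells, rose from 51.3 and 53.5 to 128 and 116 CPM, by 1.22 ± 0.14 (adjusted p 0.00401, and 0.0698 without Bcl6 cKO replicate 1), and was chosen after its values were seen.

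The 15 largest falls included genes of lipid transport and iron storage, with 1 each. Apoe, the apolipoprotein of cholesterol transport, fell from 47.1 and 33.4 CPM in wild type to 3.29 and 5.39 CPM in the libraries labelled Bcl6 cKO, by 3.24 ± 0.50 (adjusted p 0.0107). Irf2 KO libraries were also low at 3.38 and 5.07 CPM, while Nr4a1 KO libraries stood at 86.8 and 26.8 CPM. Fth1, the ferritin heavy chain that stores iron, read 2228 and 983 CPM in wild type and 128 and 207 CPM in Bcl6 cKO and fell by 3.18 ± 0.39 (adjusted p 0.00536). The other knockouts were also below wild type, at 208 and 353 CPM in Irf2 KO and 135 and 143 CPM in Nr4a1 KO. The wild type libraries differed from each other by more than a factor of 2 in Fth1, so its change was -2.59 without wild type replicate 1 and -3.77 without wild type replicate 2. The change also depended on the wild type library used in Tpgs1 (-2.06 and -3.91), a tubulin polyglutamylase subunit, in Hint2 (-1.97 and -3.47), a mitochondrial nucleotide hydrolase, and in Lsm4 (-1.47 and -3.52), a subunit of RNA-processing complexes.

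Among the other leading falls, Rps6ka4, which encodes the stress-activated kinase MSK2, fell from 17.1 and 19.8 to 2.26 and 3.04 CPM, by 2.81 ± 0.24 (adjusted p 0.00233). Ethe1, the mitochondrial sulfur dioxygenase, fell from 610.0 and 500.4 to 65.9 and 115 CPM, by 2.66 ± 0.23 (adjusted p 0.00233). Rnaseh2c, a subunit of ribonuclease H2, fell from 143 and 123 to 23.5 and 29.1 CPM, by 2.34 ± 0.14 (adjusted p 0.00111). In each of these 3 genes the Bcl6 cKO libraries lay below both wild type and both Irf2 KO libraries and above both Nr4a1 KO libraries. Vars, the valyl-tRNA synthetase, fell from 68.5 and 75.1 to 11.8 and 18.9 CPM, by 2.26 ± 0.23 (adjusted p 0.00268). Osgep, a tRNA-modifying enzyme, fell from 119.8 and 72.6 to 15.8 and 23.1 CPM, by 2.29 ± 0.26 (adjusted p 0.00399). Both enzymes act on tRNA. Osgin1, a gene induced by oxidative stress, fell by 2.36 ± 0.35 (adjusted p 0.00911), and Tmem119, best known as a microglial marker, by 2.31 ± 0.53 (adjusted p 0.0439). Of the 15 leading falls, 6 held with every library left out (Rps6ka4, Ethe1, Mrpl54, Rnaseh2c, Adora2b and Vars), whereas 9 ended without Bcl6 cKO replicate 1 (adjusted p 0.0593 to 0.252), 5 without Bcl6 cKO replicate 2 (0.0628 to 0.143), 4 without wild type replicate 1 (0.0590 to 0.175), 1 without wild type replicate 2 (0.115), 2 without Irf2 KO replicate 1 (0.0544 to 0.0678) and 2 without Irf2 KO replicate 2 (0.0532 to 0.0662). A correction for GC content and length ended the call of Lsm4 and Tmem119 (adjusted p 0.0608 to 0.0966). Voom did not call Lsm4 (adjusted p 0.0643), and quantile normalization ended the limma call of Tmem119 (adjusted p 0.0530).

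**Figure D3:**
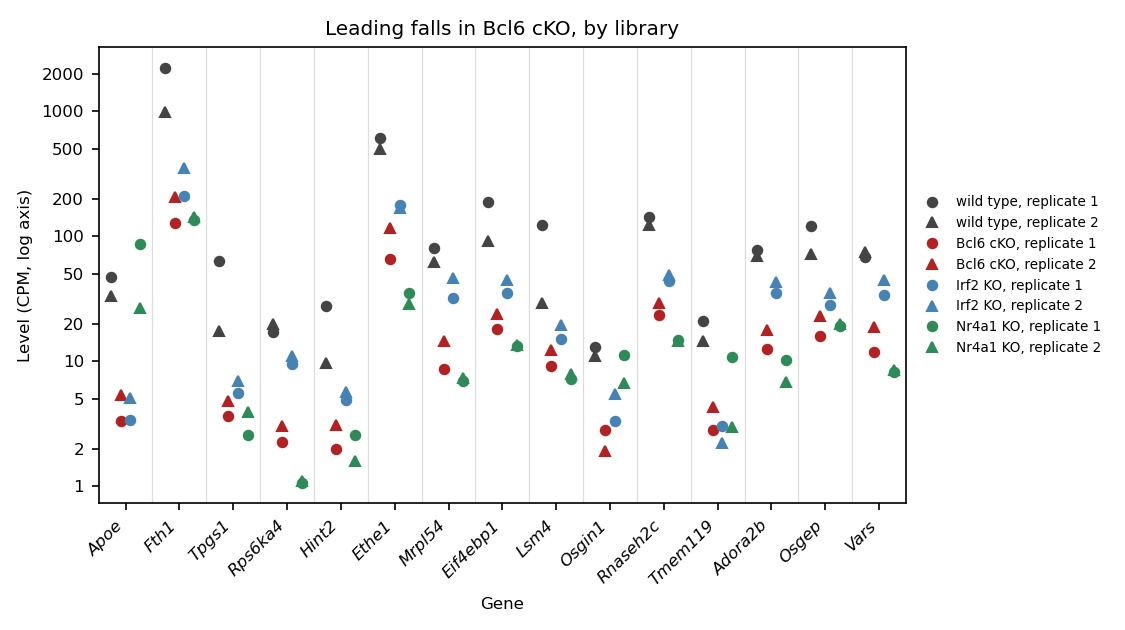
Level of the 15 leading falls in each of the 8 libraries (vertical axis, CPM on a log scale), with colours for genotype and shapes for replicate number. The genes were chosen so that the red points of Bcl6 cKO lie below the dark points of wild type. The blue and green points of the other knockouts are below wild type in many of them.

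Genes reported as direct targets of BCL6 in lymphocytes and macrophages were taken as a list of 33 tested genes. None was called higher by limma (3 had an unadjusted p under 0.05, and voom and the authors' deposited table called 0). Downwards, 1 was called (Id2), and 4 had an unadjusted p under 0.05. Such a p was common, as 2755 of the 12752 genes tested had it in either direction. In addition, 16 members had both Bcl6 cKO libraries above both wild type libraries (48.5%, against 26.8% of all genes). Another 5 had them below (15.15%, against 28.4% of all genes). The median change was 0.17, beside -0.01 over all genes. By mean level 21 of the 33 were higher in Bcl6 cKO and 12 lower. Among members that did not pass, the log2 difference was 0.67 for Prdm1, the plasma cell factor gene (adjusted p 0.436), 0.81 for Ccl3 (adjusted p 0.374), 0.89 for Il1b (adjusted p 0.182) and 0.71 for Ccl2 (adjusted p 0.495). It was -1.13 for Junb (adjusted p 0.100) and -0.56 for Runx3 (adjusted p 0.114), which also did not pass. Cd44, an adhesion receptor gene and the member with the highest mean level after Notch2, read 368 and 383 CPM in wild type and 392 and 392 CPM in Bcl6 cKO. Id2, an inhibitor of basic helix-loop-helix factors, fell from 485 and 394 to 153 and 194 CPM, by 1.34 ± 0.23 (adjusted p 0.0159). Of 21 genes for BCL6 corepressors and their partners, 1 was called higher (4.76%, beside 1.36% of all genes called higher and 5.01% in either direction). This was Tbl1x of the NCOR complex, which rose from 40.0 and 42.7 to 59.7 and 59.4 CPM (0.53 ± 0.11, adjusted p 0.0326). The median of that list was -0.19. Bcor read a log2 change of -0.70 (adjusted p 0.0777) and Hdac3 of -0.45 (adjusted p 0.103). Of the calls of Id2 and Tbl1x, 2 ended without Bcl6 cKO replicate 1 (adjusted p 0.157 to 0.189), 2 without Bcl6 cKO replicate 2 (0.0605 to 0.157), 2 without wild type replicate 1 (0.0889 to 0.133), 1 without wild type replicate 2 (0.0935), 1 without Irf2 KO replicate 1 (0.0576) and 1 without Irf2 KO replicate 2 (0.0571).

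Genes that distinguish classical from nonclassical monocytes were compared as 2 lists. Of 28 classical monocyte genes 2 were called, both higher (7.14%, with a median of 0.07). This stands beside 1.36% of all genes called higher and 5.01% in either direction. Of 22 nonclassical monocyte genes 1 was called higher and 2 lower (13.6%, beside 5.01% of all genes). Their median was -0.21, beside -0.01 over all genes. Voom called 2 of them higher and 2 lower. The authors' deposited table called 2 higher and 4 lower, beside 248 and 645 genes in all. The groups did not overlap downwards in 10 of the 22 (45.5%, beside 28.4% of all genes) and upwards in 5 (22.7%, beside 26.8%). S100a10, a partner of annexin A2, rose from 549 and 578 to 939.7 and 979.6 CPM, by 0.77 ± 0.11 (adjusted p 0.00837). Cd14, the lipopolysaccharide coreceptor, rose from 47.9 and 39.2 to 100.1 and 89.8 CPM, by 1.13 ± 0.23 (adjusted p 0.0283). Cx3cr1, the fractalkine receptor of nonclassical monocytes, had a log2 change of -1.11 that did not pass (adjusted p 0.249), and Spn, which encodes CD43, one of -0.22 (adjusted p 0.475). Cd9, also a nonclassical gene, had one of 0.90 that did not pass (adjusted p 0.0764). By mean level 9 of the 22 nonclassical genes were higher in Bcl6 cKO and 13 lower. Among nonclassical genes, the integrin gene Itgal, the LFA-1 alpha chain, fell from 163 and 183 to 86.5 and 91.3 CPM, by 0.96 ± 0.12 (adjusted p 0.00589). The integrin is used for adhesion to vessel walls. Pou2f2, the transcription factor OCT2, fell from 72.9 and 70.7 to 38.1 and 39.4 CPM, by 0.89 ± 0.16 (adjusted p 0.0190). Pparg, a lipid-sensing nuclear receptor, was the nonclassical gene called higher and rose from 2.56 and 1.86 to 19.9 and 24.3 CPM, by 3.34 ± 0.39 (adjusted p 0.00446). All 4 libraries of the other knockouts were at or below 2.32 CPM in Pparg.

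Of 38 factors that direct monocyte development 4 were called, all lower (10.5%, beside 3.65% of all genes called lower). The lean depended on the scaling: the median was -0.06 as deposited, 0.01 after median centring and 0.05 after the correction for GC content and length. With median centring, and likewise in the authors' deposited table, 3 were called higher and 4 lower. Cebpe, a factor of granulocyte maturation, fell from 29.4 and 31.4 to 6.83 and 7.81 CPM, by 2.06 ± 0.19 (adjusted p 0.00238). Irf5, a factor of inflammatory gene induction, fell from 408 and 483 to 263 and 279.6 CPM, by 0.71 ± 0.10 (adjusted p 0.00929). Id1, a relative of Id2, fell from 73.8 and 57.7 to 27.3 and 35.7 CPM, by 1.06 ± 0.18 (adjusted p 0.0137). Irf8, the main factor of monocyte fate, read 423 and 261 CPM in wild type and 207 and 241 CPM in Bcl6 cKO (adjusted p 0.164). Of 19 Notch pathway genes 1 was called higher (5.26%, beside 1.36% of all genes called higher and 5.01% in either direction, median 0.04). This was the ligand gene Jag1, which rose from 0.612 and 0.380 to 2.95 and 2.81 CPM (2.58 ± 0.52, adjusted p 0.0293). Rbpj, the DNA-binding factor of Notch signalling, had a log2 change of -0.08 (adjusted p 0.821). Of the 10 calls named for monocyte subsets, factors and Notch, that of Cebpe held throughout, while 9 ended without Bcl6 cKO replicate 1 (adjusted p 0.0662 to 0.199), 6 without Bcl6 cKO replicate 2 (0.0507 to 0.154), 6 without wild type replicate 1 (0.0545 to 0.0891) and 3 without wild type replicate 2 (0.0785 to 0.142).

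**Figure D4:**
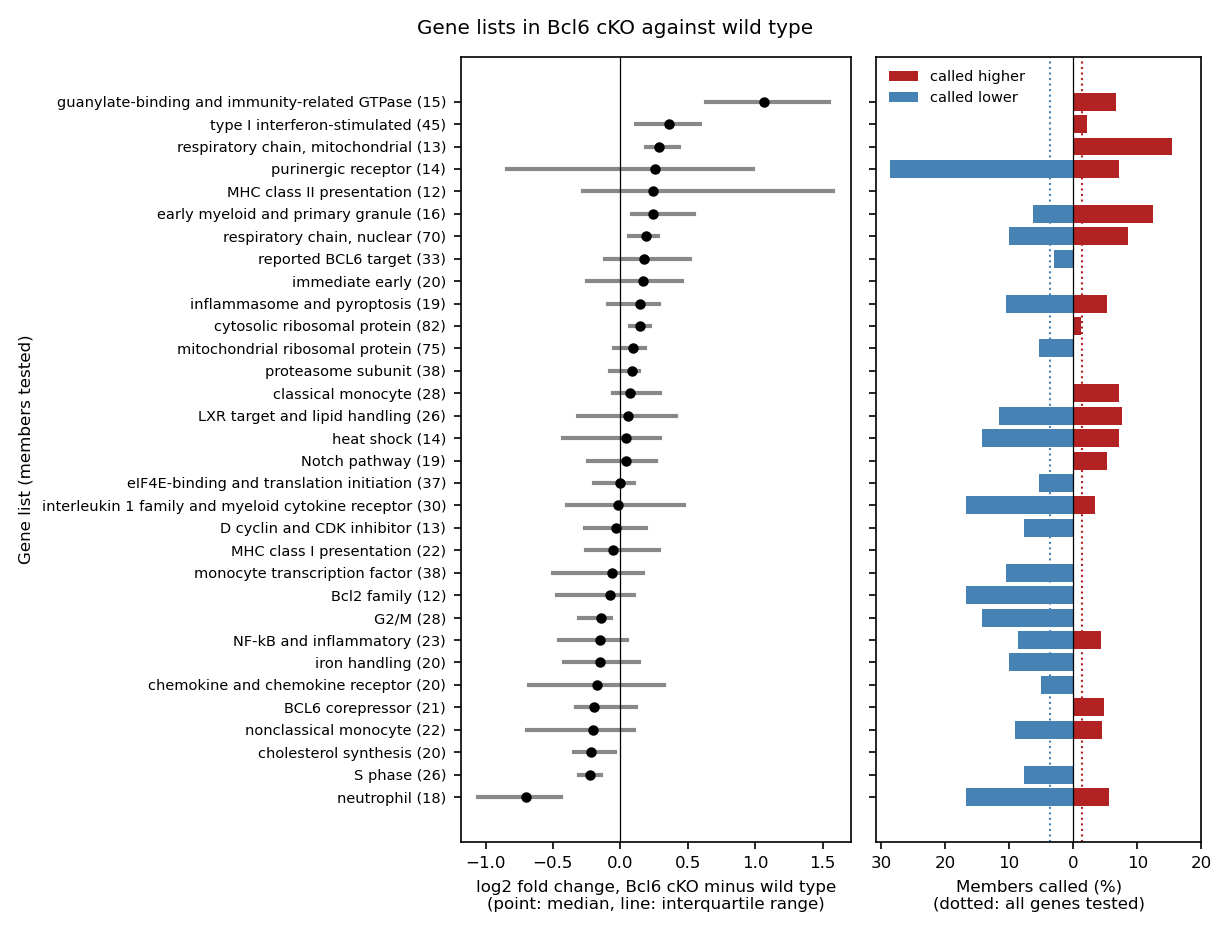
Gene lists with at least 10 tested members. The left panel gives the median log2 fold change (points) and the interquartile range of the members (lines), and the right panel the percentage of members called higher (red) or lower (blue), with dotted lines at 1.36% and 3.65% for all genes tested. The guanylate-binding and immunity-related GTPase list has the highest median (1.07) and the neutrophil list the lowest (-0.70).

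Interferon-induced genes lay above wild type in most members, yet few passed the test, and libraries of 1 genotype differed widely. Of 45 type I interferon-stimulated genes 1 was called, and it was higher (2.22%, beside 1.36% of all genes called higher and 5.01% in either direction). A higher mean in Bcl6 cKO was found in 39 (median 0.36, beside -0.01 over all genes). The groups did not overlap upwards in 12 of the 45, which is 26.7% beside 26.8% of all genes. Ifi27l2a read 437 and 883 CPM in wild type and 1127 and 1356 CPM in Bcl6 cKO (adjusted p 0.337), and Slfn2 1160.1 and 1274 and 1158 and 1096 CPM. Of 15 guanylate-binding and immunity-related GTPases, which attack the vacuoles of intracellular pathogens, 1 was called higher (6.67%, median 1.07). This stands beside 1.36% of all genes called higher and 5.01% in either direction. Upwards, 11 of the 15 did not overlap (73.3%, beside 26.8% of all genes). The summed level of the 15 was 321 and 506 CPM in wild type and 708 and 721 CPM in Bcl6 cKO. It was 1666 and 2442 CPM in Irf2 KO and 216 and 2056 CPM in Nr4a1 KO. Gbp8, the called member, read 0.216 and 0.263 CPM in wild type, 4.10 and 6.08 CPM in Bcl6 cKO and 0.735 and 10.2 CPM in Nr4a1 KO (4.39 ± 0.99, adjusted p 0.0411), and shares sequence with its neighbours. The authors' deposited table did not call Gbp8 (adjusted p 0.124), and limma on log2(CPM + 1) did not either (adjusted p 0.0975). Gbp7 had a log2 change of 2.34 with an adjusted p of 0.0874, and Irgm1 one of -0.03 (adjusted p 0.987).

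The inflammasome list had 1 of 19 members called higher and 2 lower (15.8%, beside 5.01% of all genes). After the correction for GC content and length 0 were called higher and 1 lower. Nlrc4, the sensor adaptor for bacterial flagellin, rose from 31.5 and 34.2 to 59.8 and 48.4 CPM, by 0.71 ± 0.16 (adjusted p 0.0443). Gsdmd, the pore-forming protein of pyroptosis, fell from 143 and 153 to 108 and 113 CPM, by 0.42 ± 0.10 (adjusted p 0.0428). Ninj1, which drives membrane rupture in dying cells, fell from 97.1 and 96.9 to 28.3 and 41.1 CPM, by 1.51 ± 0.23 (adjusted p 0.00954). Casp1, the inflammasome protease, read 80.7 and 87.9 CPM in wild type and 101 and 104 CPM in Bcl6 cKO (adjusted p 0.484). None of the 5 calls of Trim30c, Gbp8, Nlrc4, Ninj1 and Gsdmd held throughout: 5 ended without Bcl6 cKO replicate 1 (adjusted p 0.0977 to 0.261), 4 without Bcl6 cKO replicate 2 (0.0649 to 0.228), 5 without wild type replicate 1 (0.0539 to 0.164), 3 without wild type replicate 2 (0.125 to 0.196), 3 without Irf2 KO replicate 1 (0.0614 to 0.0713) and 3 without Irf2 KO replicate 2 (0.0601 to 0.0703). With GC content and length corrected, the calls of Gbp8, Nlrc4 and Gsdmd ended (adjusted p 0.0534 to 0.203).

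Of 23 NF-kB and inflammatory genes 1 was called higher and 2 lower (13%, beside 5.01% of all genes, with a median of -0.15). Nfkbia, the inhibitor that holds NF-kB in the cytoplasm, fell from 433 and 646 to 78.2 and 165 CPM, by 2.22 ± 0.32 (adjusted p 0.00847). The other knockouts were at 262 and 329 CPM (Irf2 KO) and 38.0 and 40.0 CPM (Nr4a1 KO), so all 6 knockout libraries lay below both wild type libraries. Nfkb2, a subunit of the alternative NF-kB pathway, fell from 18.4 and 17.2 to 7.38 and 9.36 CPM, by 1.10 ± 0.18 (adjusted p 0.0143). Il1rn, the interleukin 1 receptor antagonist, rose from 11.7 and 13.5 to 27.0 and 26.1 CPM, by 1.08 ± 0.21 (adjusted p 0.0249). Nfkb2 and Il1rn thus went in opposite directions. Tifa, an adaptor upstream of NF-kB, fell from 126 and 129.7 to 66.1 and 65.9 CPM, by 0.95 ± 0.09 (adjusted p 0.00268). Map4k1, the kinase HPK1, fell by 1.64 ± 0.16 (adjusted p 0.00268), and Ptgir, the prostacyclin receptor, by 1.59 ± 0.17 (adjusted p 0.00379). The last 3 genes were chosen after their values were seen.

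Of 30 genes for the interleukin 1 family and myeloid cytokine receptors, 1 was called higher (Il1rl2, above) and 5 lower, 20.0% against 5.01% of all genes, with a median of -0.02. The split depended on the scaling: 3 were called higher and 3 lower after median centring (median 0.05), and 3 higher and 1 lower after the correction for GC content and length (median 0.04). Tnfrsf1b, the TNF receptor 2, fell from 171 and 239.7 to 105 and 115 CPM, by 0.88 ± 0.15 (adjusted p 0.0147). Il10ra, the interleukin 10 receptor chain, fell from 87.5 and 104 to 51.3 and 62.3 CPM, by 0.76 ± 0.14 (adjusted p 0.0190). In both genes the Bcl6 cKO libraries lay below the wild type libraries, as in 28.4% of all genes. The interferon receptor genes Ifngr1 and Ifnar1 fell by 0.54 ± 0.11 and 0.65 ± 0.14 (adjusted p 0.0298 and 0.0318). Csf3r, the G-CSF receptor, fell from 167 and 178 to 132 and 127 CPM, by 0.41 ± 0.09 (adjusted p 0.0426). Csf1r, the receptor for the monocyte growth factor M-CSF, read 441 and 588 CPM in wild type and 454 and 435 CPM in Bcl6 cKO and was not called (adjusted p 0.444). In the chemokine list 1 of 20 was called lower (5%, beside 3.65% of all genes called lower and 5.01% in either direction, median -0.17). This was C5ar1, the complement C5a receptor, which fell from 53.2 and 37.7 to 9.14 and 11.5 CPM, by 2.12 ± 0.38 (adjusted p 0.0171). Ccr2 was not called (-0.20 ± 0.13, adjusted p 0.416). Of the 13 calls on inflammatory signalling named here and in the paragraph before, 4 held throughout (Il1rl2, Tifa, Map4k1 and Ptgir), whereas 9 ended without Bcl6 cKO replicate 1 (adjusted p 0.0579 to 0.209), 6 without Bcl6 cKO replicate 2 (0.0612 to 0.222), 6 without wild type replicate 1 (0.0790 to 0.113), 6 without wild type replicate 2 (0.0576 to 0.196), 3 without Irf2 KO replicate 1 (0.0505 to 0.0689) and 3 without Irf2 KO replicate 2 (0.0506 to 0.0683). With GC content and length corrected, the calls of Nfkb2, Il10ra, Ifngr1, Ifnar1 and Csf3r ended (adjusted p 0.0548 to 0.395).

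Receptors for nucleotides and adenosine moved in both directions. Of a list of 14 purinergic and related genes 1 was called higher and 4 lower, 35.7% against 5.01% of all genes, with a median of 0.25. The list also held Entpd1, Gpr171, Gpr183 and Gpr34, which are not established receptors for nucleotides or adenosine. Each of these had a positive change that did not pass. The share and the median therefore describe this wider list, not receptors for nucleotides and adenosine alone. Adora2b, the low-affinity adenosine receptor, fell from 77.4 and 69.9 to 12.4 and 17.9 CPM, by 2.30 ± 0.24 (adjusted p 0.00319). P2rx4, an ATP-gated channel, fell from 78.7 and 68.3 to 38.3 and 49.6 CPM, by 0.75 ± 0.15 (adjusted p 0.0266). P2ry6, a receptor for UDP, fell from 62.3 and 81.8 to 38.3 and 39.8 CPM, by 0.87 ± 0.18 (adjusted p 0.0327). These falls stood beside the rise of the ADP receptor gene P2ry13 described above. Adora3 fell from 12.3 and 7.86 to 4.45 and 2.71 CPM, by 1.5 ± 0.34 (adjusted p 0.0421), and P2rx7, the ATP channel upstream of the inflammasome, read 48.1 and 52.9 against 39.5 and 33.7 CPM (adjusted p 0.0759). Of the 5 purinergic calls, that of Adora2b held throughout, while 4 ended without Bcl6 cKO replicate 1 (adjusted p 0.0624 to 0.201), 2 without Bcl6 cKO replicate 2 (0.156 to 0.245), 3 without wild type replicate 1 (0.0550 to 0.182), 3 without wild type replicate 2 (0.0599 to 0.173), 1 without Irf2 KO replicate 1 (0.0700) and 1 without Irf2 KO replicate 2 (0.0686). A correction for GC content and length ended the call of P2ry6 and Adora3 (adjusted p 0.0646 to 0.116).

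Lipid genes changed in both directions. Of 26 LXR target and lipid-handling genes 2 were called higher and 3 lower (19.2%, beside 5.01% of all genes, median 0.06). None of 20 cholesterol synthesis genes was called by limma or voom (median -0.22), and 1 was called in the authors' deposited table. An unadjusted p under 0.05 was found in 1 of the 20, beside 2755 of the 12752 genes tested. Lpl, the lipoprotein lipase, rose from 76.1 and 92.2 to 278 and 217 CPM, by 1.55 ± 0.26 (adjusted p 0.0138). Srebf1, the factor that drives fatty acid synthesis, fell from 32.1 and 38.2 to 14.7 and 15.8 CPM, by 1.20 ± 0.18 (adjusted p 0.00979). Smpdl3a, a phosphodiesterase induced by LXR, fell from 386 and 313 to 140.1 and 160.1 CPM, by 1.21 ± 0.19 (adjusted p 0.0111). None of these 3 genes overlapped between the groups, which holds for 55.2% of all genes in either direction. Apoe fell and Pparg rose, with the values above. Among lysosomal genes chosen after their values were seen, Pld3, a nuclease of endolysosomes, rose from 21.7 and 27.5 to 46.4 and 44.2 CPM (0.89 ± 0.15, adjusted p 0.0143), and Sidt2, a lysosomal membrane protein, from 76.5 and 97.5 to 163 and 203 CPM (1.07 ± 0.15, adjusted p 0.00844).

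Of 20 iron-handling genes 2 were called, both lower (10.0%, beside 3.65% of all genes, median -0.15). Beside Fth1, Slc11a1, the phagosomal metal transporter NRAMP1, fell from 99.4 and 117 to 50.7 and 41.6 CPM, by 1.23 ± 0.16 (adjusted p 0.00589). Ftl1, the ferritin light chain, read 2004 and 2171 CPM in wild type and 1986 and 2112 CPM in Bcl6 cKO, a change of -0.03 ± 0.10 (adjusted p 0.911). None of the 9 lipid, lysosomal and iron calls named here and in the paragraph before held throughout: 9 ended without Bcl6 cKO replicate 1 (adjusted p 0.0525 to 0.143), 5 without Bcl6 cKO replicate 2 (0.0565 to 0.0797), 4 without wild type replicate 1 (0.0676 to 0.0775) and 1 without wild type replicate 2 (0.0554).

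Of 70 nuclear respiratory chain genes 6 were called higher and 7 lower (18.6%, beside 5.01% of all genes), with a median of 0.19. Upwards, 50 of them did not overlap (71.4%, beside 26.8% of all genes). After median centring 10 were called higher and 6 lower, and 10 and 7 in the authors' deposited table. Atp5d, a subunit of ATP synthase, fell from 253 and 194 to 44.7 and 60.3 CPM, by 2.09 ± 0.19 (adjusted p 0.00238). Atp5b, the catalytic subunit of the same enzyme, fell from 665 and 572 to 275 and 319 CPM, by 1.06 ± 0.13 (adjusted p 0.00589), while its partner Atp5a1 read 881 and 855 and 792 and 815 CPM (adjusted p 0.515). The cytochrome oxidase subunit genes Cox5b and Cox8a fell by 2.03 ± 0.23 and 1.42 ± 0.22 (adjusted p 0.00402 and 0.0111). Ndufa5, a subunit of complex I, rose from 107 and 101 to 153 and 143 CPM, by 0.51 ± 0.09 (adjusted p 0.0165). Ndufa10 of the same complex was called lower, so calls within it went in both directions. Chchd2, a mitochondrial protein gene, fell from 254 and 247 to 46.3 and 71.7 CPM, by 2.12 ± 0.21 (adjusted p 0.00268). Of 13 genes of the mitochondrial genome, mt-Nd2 and mt-Nd6 rose by 0.45 ± 0.09 and 0.49 ± 0.10 (adjusted p 0.0231 and 0.0278). The median of the 13 was 0.29, and it was -0.003 after the correction for GC content and length. The labels do not state a stranded kit, and mt-Nd6 lies on the other strand from its neighbours, so its reads may include theirs.

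Of 75 mitochondrial ribosomal protein genes 4 were called, all lower (5.33%, beside 3.65% of all genes, median 0.10), and after median centring 1 was called higher and 4 lower. Mrpl54 fell from 80.3 and 62.0 to 8.67 and 14.6 CPM, by 2.65 ± 0.27 (adjusted p 0.00282), and Mrpl38, Mrps22 and Mrpl57 by 1.76 ± 0.31, 1.30 ± 0.21 and 1.23 ± 0.21 (adjusted p 0.0163, 0.0119 and 0.0156). Of 82 cytosolic ribosomal protein genes only Rps27l was called, with a change of 0.48 ± 0.10 (adjusted p 0.0313). It makes 1.22%, beside 1.36% of all genes called higher and 5.01% in either direction. The median of the 82 was 0.15, and 43 did not overlap upwards (52.4%, beside 26.8% of all genes). Of 37 translation initiation genes 2 were called, both lower (5.41%), and after median centring 1 was called higher and 2 lower. Eif4ebp1, the repressor of eIF4E that mTOR inactivates, fell from 186 and 91.6 to 18.1 and 24.0 CPM, by 2.65 ± 0.30 (adjusted p 0.00401). Eif1, which guards start codon choice, fell from 1024 and 1000.2 to 310.3 and 482 CPM, by 1.39 ± 0.18 (adjusted p 0.00589), and was lower still in Nr4a1 KO at 76.5 and 84.2 CPM. None of 38 proteasome subunit genes was called by limma, voom or the authors' deposited table (median 0.09). An unadjusted p under 0.05 was found in 7 of them, beside 2755 of the 12752 genes tested. Of 15 mitochondrial and translation calls named here and in the paragraph before, 4 held throughout (Eif1, Mrpl54, Atp5d and Chchd2), whereas 11 ended without Bcl6 cKO replicate 1 (adjusted p 0.0555 to 0.204), 6 without Bcl6 cKO replicate 2 (0.0553 to 0.173), 8 without wild type replicate 1 (0.0560 to 0.0949) and 6 without wild type replicate 2 (0.0576 to 0.155). With GC content and length corrected, the calls of Rps27l, mt-Nd2 and mt-Nd6 ended (adjusted p 0.333 to 0.979).

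Cell cycle genes were lower in most members, with few calls. Of 28 G2/M genes 4 were called, all lower (14.3%, beside 3.65% of all genes), and 23 had a lower mean in Bcl6 cKO (median -0.14). Of 26 S phase genes 2 were called, both lower (7.69%), and 23 had a lower mean (median -0.22). After the correction for GC content and length 3 G2/M and 0 S phase genes were called. Cdc20, the activator of the anaphase-promoting complex, fell from 106 and 106 to 33.9 and 40.3 CPM, by 1.52 ± 0.14 (adjusted p 0.00238). Cenpa, the centromeric histone H3 variant, fell from 293 and 297 to 154 and 181 CPM, by 0.82 ± 0.10 (adjusted p 0.00589). Ccnb2, a mitotic cyclin, fell from 372 and 238 to 157 and 163 CPM, by 0.90 ± 0.18 (adjusted p 0.0281). In these 3 genes the groups did not overlap, as in 28.4% of all genes downwards. The general proliferation marker Mki67 read 389 and 336 CPM in wild type and 377 and 372 CPM in Bcl6 cKO (adjusted p 0.878). The checkpoint kinase gene Bub1b and the helicase subunit genes Mcm5 and Mcm2 fell by 0.57 ± 0.11, 0.44 ± 0.08 and 0.53 ± 0.12 (adjusted p 0.0198, 0.0201 and 0.0376). In the D cyclin list 1 of 13 was called, and it was lower (7.69%, beside 3.65% of all genes). Ccnd3 fell from 258 and 160.1 to 94.8 and 109 CPM, by 1.0 ± 0.21 (adjusted p 0.0320), and Ccnd2, a reported BCL6 target, had a log2 change of 0.51 (adjusted p 0.586).

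Of 12 Bcl2 family genes 2 were called, both lower (16.7%, beside 3.65% of all genes) and both promoters of cell death, and 0 were called after median centring. Bax fell from 136 and 133 to 92.8 and 102 CPM, by 0.47 ± 0.10 (adjusted p 0.0329), and Bid from 174 and 157 to 129 and 107 CPM, by 0.49 ± 0.11 (adjusted p 0.0419). Morrbid, a long noncoding RNA that represses the death gene Bcl2l11 in short-lived myeloid cells, rose from 70.2 and 57.5 to 113 and 96.6 CPM, by 0.72 ± 0.13 (adjusted p 0.0200), and was chosen after its values were seen. Of 14 heat shock genes 1 was called higher and 2 lower (21.4%, beside 5.01%). Hsp90b1, a chaperone of the endoplasmic reticulum, rose from 308 and 283 to 472 and 437 CPM, by 0.62 ± 0.09 (adjusted p 0.00906). Dnajb1, a cochaperone of the cytosol, fell from 89.9 and 80.2 to 28.2 and 43.2 CPM, by 1.28 ± 0.20 (adjusted p 0.0110), and the heat shock factor gene Hsf1 by 1.25 ± 0.29 (adjusted p 0.0423). None of 20 immediate early genes, 22 MHC class I or 12 MHC class II genes was called by limma or voom. The authors' deposited table called 1, an MHC class I gene. At an unadjusted p under 0.05 the 3 lists had 3, 1 and 4 genes, beside 2755 of the 12752 genes tested. Of 13 calls on cell cycle, survival and chaperones named here and in the paragraph before, that of Cdc20 held throughout, while 12 ended without Bcl6 cKO replicate 1 (adjusted p 0.0703 to 0.219), 8 without Bcl6 cKO replicate 2 (0.0600 to 0.237), 9 without wild type replicate 1 (0.0619 to 0.177), 7 without wild type replicate 2 (0.0897 to 0.190), 5 without Irf2 KO replicate 1 (0.0514 to 0.0703) and 5 without Irf2 KO replicate 2 (0.0509 to 0.0694). With GC content and length corrected, the calls of Bub1b, Mcm5, Mcm2, Ccnd3, Bax, Bid and Hsf1 ended (adjusted p 0.0594 to 0.434).

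Markers of other bone marrow cells were checked beside these results. The neutrophil list was the lowest of all lists in the plot of list medians: of 18 tested genes 1 was called higher and 3 lower (22.2%, beside 5.01% of all genes), 15 did not overlap downwards (83.3%, against 28.4% of all genes), and the median was -0.70. Its summed level was 3702 and 3541 CPM in wild type and 3007 and 2639 CPM in Bcl6 cKO. S100a8 read 1015 and 709 CPM in wild type and 438 and 351 CPM in Bcl6 cKO (adjusted p 0.162). Cd177, a neutrophil surface protein, fell from 286 and 369 to 151 and 157 CPM, by 1.08 ± 0.22 (adjusted p 0.0284), and Mmp9, a granule protease, from 12.1 and 14.1 to 4.75 and 4.92 CPM, by 1.44 ± 0.30 (adjusted p 0.0320). Elane, the neutrophil elastase of early progenitors, went the other way, from 779 and 937 to 1323 and 1152 CPM (0.53 ± 0.13, adjusted p 0.0479). Of 16 early myeloid and primary granule genes 2 were called higher and 1 lower (18.75%, beside 5.01% of all genes, median 0.24). The sum of the 16 was 4073 and 4188 CPM in wild type and 4909 and 4438 CPM in Bcl6 cKO. In such bulk samples fewer cells of a type and less RNA per cell cannot be told apart. The part of these cells in the falls of Cebpe, Csf3r, Mmp9 and Cd177 was not tested.

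Of 17 T and NK cell genes only Nkg7 reached the mean of 1 CPM. Of 12 B cell genes 5 were tested and 1 was called lower (20%, beside 3.65% of all genes called lower and 5.01% in either direction). This was Cd79b, which fell from 47.9 and 54.1 to 32.1 and 28.4 CPM (0.75 ± 0.15 on the log2 scale, adjusted p 0.0277). The B cell sum was 684 and 779 CPM in wild type and 854 and 829 CPM in Bcl6 cKO. Most of it was the immunoglobulin heavy chain gene Ighm, at 606 and 699 CPM in wild type and 813 and 777 CPM in Bcl6 cKO (0.29 ± 0.20, adjusted p 0.460). Of 12 erythroid genes 6 were tested, with a sum of 37.4 and 37.7 CPM in wild type and 29.9 and 20.4 CPM in Bcl6 cKO, and the haemoglobin gene Hba-a1, a near copy of Hba-a2, fell from 8.18 and 8.62 to 3.61 and 2.37 CPM (1.52 ± 0.34 on the log2 scale, adjusted p 0.0390). No conventional dendritic cell (9 tested), plasmacytoid dendritic cell (6), macrophage (7), basophil (3) or megakaryocyte (1) gene was called by limma, and the conventional dendritic cell sum was 388 and 392 CPM in wild type and 306 and 351 CPM in Bcl6 cKO. At an unadjusted p under 0.05 they gave 0, 0, 1, 1 and 1 genes, beside 2755 of the 12752 genes tested. Both voom and the authors' deposited table called 1, the megakaryocyte gene Itgb3 (19.6 and 25.3 CPM in wild type, 46.3 and 53.9 CPM in Bcl6 cKO). Of 8 marker calls named here and in the paragraph before (Cd177, Mmp9, Csf3r, Elane, Nkg7, Cebpe, Cd79b and Hba-a1), that of Cebpe held throughout, while 7 ended without Bcl6 cKO replicate 1 (adjusted p 0.125 to 0.264), 7 without Bcl6 cKO replicate 2 (0.0776 to 0.233), 7 without wild type replicate 1 (0.0612 to 0.199), 6 without wild type replicate 2 (0.0598 to 0.196), 2 without Irf2 KO replicate 1 (0.0549 to 0.0689) and 2 without Irf2 KO replicate 2 (0.0538 to 0.0683). With GC content and length corrected, the calls of Cd177, Mmp9, Csf3r, Cd79b and Hba-a1 ended (adjusted p 0.0640 to 0.395).

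The libraries labelled Bcl6 cKO were also compared directly with each other knockout, to see which changes set them apart from all 3 other groups. Against Irf2 KO, 1218 genes were called (9.55%), 724 higher (5.68%) and 494 lower (3.87%) in Bcl6 cKO. Against Nr4a1 KO 733 were called (5.75%), 634 higher (4.97%) and 99 lower (0.776%). These comparisons share the Bcl6 cKO libraries. Of the 173 genes above wild type, 76 were also called above Irf2 KO and 56 above Nr4a1 KO. Of the 466 genes below wild type, 94 were called below Irf2 KO and 27 below Nr4a1 KO, while 112 were called above Nr4a1 KO. Altogether 46 genes (0.361%) were called in 1 direction against all 3 groups, 41 higher (0.322%) and 5 lower (0.0392%). Without Bcl6 cKO replicate 1 that count was 5, and without replicate 2 it was 7. Without wild type replicate 1 it was 22, and without wild type replicate 2 it was 29.

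Among the 8 largest of these rises, Tmcc3 exceeded Irf2 KO by 4.27 ± 0.48 and Nr4a1 KO by 2.53 ± 0.48 (adjusted p 0.00253 and 0.0159). P2ry13 exceeded them by 2.46 ± 0.30 and 2.92 ± 0.30 (adjusted p 0.00340 and 0.000851), and Dcaf1 by 2.44 ± 0.24 and 3.05 ± 0.24 (adjusted p 0.00201 and 0.000260). Il1rl2, Osm, Chn2, Mgat4a and Smim40 made up the rest, with differences of 1.26 to 2.50. Bcl6, Pilra, Pparg and Clec4n were also in this group of 41, and Clec4n exceeded Irf2 KO by 5.95 ± 0.49 and Nr4a1 KO by 3.65 ± 0.49 (adjusted p 0.000965 and 0.00303). Shtn1, the leading rise against wild type, was not: it differed from Irf2 KO by 0.01 ± 0.37 (adjusted p 0.989). Of the 8 calls against wild type, those of Dcaf1 and Il1rl2 held throughout, while 6 ended without Bcl6 cKO replicate 1 (adjusted p 0.0525 to 0.162), 3 without Bcl6 cKO replicate 2 (0.0699 to 0.106), 3 without wild type replicate 1 (0.0598 to 0.0851) and 2 without wild type replicate 2 (0.0652 to 0.0660).

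The 5 genes below all 3 groups were Msr1, Rnf144a, Rere, Bid and Grap. Msr1, the macrophage scavenger receptor, read 151 and 125 CPM in wild type, 75.4 and 62.0 CPM in Bcl6 cKO, 147 and 183 CPM in Irf2 KO and 140.3 and 129.6 CPM in Nr4a1 KO, and its fall against wild type was 1.01 ± 0.15 on the log2 scale (adjusted p 0.0102). Rnf144a, a ubiquitin ligase, fell from 17.4 and 20.6 to 9.01 and 8.75 CPM, by 1.09 ± 0.15 (adjusted p 0.00805), and stood at 21.6 and 19.0 CPM in Irf2 KO and 23.1 and 22.7 CPM in Nr4a1 KO. Its relative Rnf144b was among the rises above. Rere, a nuclear receptor coregulator, fell from 46.1 and 54.2 to 28.1 and 26.6 CPM, by 0.87 ± 0.13 (adjusted p 0.00906), and Grap, an adaptor of receptor signalling, from 7.17 and 6.71 to 1.98 and 1.52 CPM, by 2.0 ± 0.28 (adjusted p 0.00805). None of the 5 calls against wild type held throughout: 5 ended without Bcl6 cKO replicate 1 (adjusted p 0.0697 to 0.0977), 5 without Bcl6 cKO replicate 2 (0.0523 to 0.237), 3 without wild type replicate 1 (0.0523 to 0.172), 1 without wild type replicate 2 (0.0897), 1 without Irf2 KO replicate 1 (0.0703) and 1 without Irf2 KO replicate 2 (0.0694). A correction for GC content and length ended the call of Bid (adjusted p 0.135).

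Calls moved with the base composition of genes. The Spearman correlation across 12740 genes between the change and the GC content of the transcript was -0.32, and with transcript length it was -0.11. These are descriptions across genes that share the same 4 libraries. Within a genotype, the difference between replicates (2 minus 1) correlated with GC content at 0.21 in wild type and 0.17 in Bcl6 cKO. When genes were split by GC content into 5 bins of nearly equal size, 1.77% were called higher and 0.981% lower in the lowest bin, and 0.746% higher and 8.36% lower in the highest. The median GC content was 47.6% in genes called higher, 54.1% in genes called lower and 49.0% in all. After GC content and length were corrected within each library, 415 of 12740 genes were called (3.26%), 149 higher and 266 lower, and 369 of the 639 were among them. The falls of Mcm2, Bax and Bid did not pass after this correction, whereas Bcl6, Dcaf1, Fth1, Ethe1, Nfkbia and Eif1 did.

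**Figure D5:**
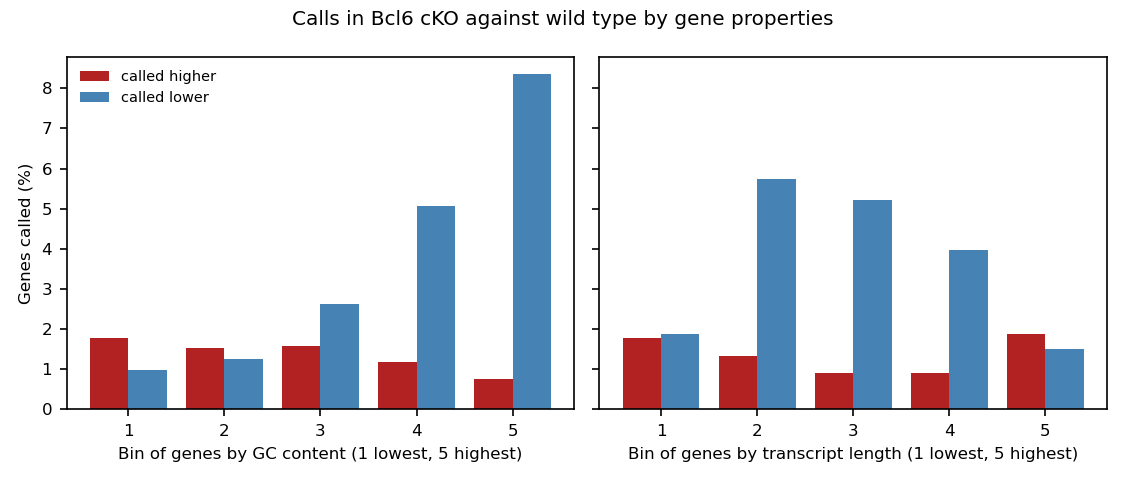
Percentage of genes called higher (red) and lower (blue) in Bcl6 cKO within 5 nearly equal bins of the 12740 genes by GC content (left) and transcript length (right). The share called lower climbs from 0.981% in the lowest GC bin to 8.36% in the highest, while by length the shares called lower are larger in the 3 middle bins than in the shortest and the longest.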

How the data were processed

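RNA was measured in 8 libraries of Ly6C-high bone marrow monocytes, made, per the labels' protocols, with a kit for full-length cDNA from 10 ng RNA, 12 to 15 cycles of amplification and paired reads of 150 bases. The submitters' processing notes name bcl2fastq, STAR 2.7.9a, Subread featureCounts 2.0.3, Salmon 1.5.2, limma and the build mm10, without an order. The authors deposited log2 CPM per library, made as in voom by adding 0.5 to each read count before dividing by the scaled library size, which was checked by undoing the formula: all values came within 0.01 of whole reads. The deposited table also gives log2 fold changes, p-values and adjusted p-values for the knockouts over wild type, which the file headers set out as limma does, and these were used as an alternative only. A signed linear fold change in that table, which the authors deposited and which is treated here as a score, was not used.

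Of 13789 rows 45 repeats were dropped. The log2 CPM of 12752 genes whose mean reached 0 (1 CPM) went into limma 3.58.1 (R 4.3.3) as 4 group means over all 8 libraries, with empirical Bayes and a trend of the prior variance (4 residual and 4.66 prior degrees of freedom). P-values were adjusted by Benjamini-Hochberg over all genes per comparison, with a threshold of 0.05. This assumes a like spread in all groups, and a library left alone in its group is assumed to vary like the others. GC content, length and positions came from GENCODE M21 (GRCm38) for 12740 genes. Intervals and floors for counting error were not computed. Plots were made in Python 3.11.15 using matplotlib 3.10.9, and the procedure was tested on simulated data.

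The groups and gene lists were chosen with earlier results of these data known. Named genes are the targeted genes and Notch2, the 15 largest rises and falls (protein-coding, mean at least 2 log2 CPM, groups not overlapping), up to 5 called and 2 uncalled members per list, called genes within 5 Mb of Bcl6, those called alike against all 3 groups and those called with every library left out. Other genes were chosen after their values were seen: Clec4n, Pilrb1, Pilrb2, Anxa3, Tfec, Morrbid, Ahctf1, Arid5b, Rnf144b, Grap, Ptgir, Tifa, Map4k1, Sidt2 and Pld3, and list members given with a log2 difference only. Alternatives were no trend, other filters, log2(CPM + 1), other scalings, only the 2 groups compared, weights per library, a replicate block, the GC correction, leaving out each library, and voom on recovered reads. Values of some genes are not reported here.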

Additional observations from a re-analysis of the deposited data

How the results depend on the processing

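No call turned its direction under any alternative. Medians of 8 of 41 gene lists changed sign, 5 with median centring and 7 with the GC content and length correction, and of these only the mitochondrial genome list (0.29, then -0.003) had lain more than 0.1 from 0. The 639 calls (173 higher, 466 lower) became 259 (80 and 179) without a trend of the prior variance, 415 (149 and 266) with the GC content and length correction, 868 (260 and 608) with only the Bcl6 cKO and wild type libraries, 885 (266 and 619) with library weights and 893 (248 and 645) in the authors' deposited table. With each library left out in turn the count ran from 33 to 917, the higher calls from 8 to 272 and the lower calls from 25 to 645. The lowest came without Bcl6 cKO replicate 1, and the highest without Nr4a1 KO replicate 2. Over the same fits, calls against Irf2 KO ran from 138 to 1647, calls against Nr4a1 KO from 250 to 859, and calls alike against all 3 groups from 5 to 58. All fits without a library had fewer residual degrees of freedom than the full fit, those with more calls and those with fewer alike. The cause of the differences in count was not tested.

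Replicate numbers are shared by the genotypes in the labels, which do not say if the numbers pair samples. The differences between replicates of wild type and Bcl6 cKO correlated at 0.03 across genes, and over all pairs of genotypes at -0.00 to 0.18. Such correlations cannot settle whether samples were paired. With the replicate block 626 genes were called (161 higher), and with the block and the GC correction together 432, of which 277 were lower. The block ended 4 of the 125 named calls. Filters, log2(CPM + 1), median centring and quantile normalization kept each total within 1.5 times its size, but median centring ended 7 and quantile normalization 9 of the 125 named calls. Voom, with 739 calls, and voom with quality weights, with 914, were added after seeing the data. Of 125 named calls, 62 were lost without the trend and 28 with the GC correction. What depth limits was not tested.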
